A study of Mus musculus with 12 samples.

Results

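The genes described here are the well-expressed Zfp genes of the newborn mouse retina. They are all genes whose symbol is Zfp followed only by a number and whose mean normalised read count was at least 100 in each of the deposited tables, that of retinal ganglion cells (RGCs) and that of the remaining retinal cells (non-RGCs). The rule gave 256 genes, of 338 with such a symbol and of 38720 genes in all. The members were chosen by their mean over both genotypes, so their level is a condition of entry and not a result. A gene below 100 in WT can enter through its mKO libraries, so rises of the weakest members are partly set by the rule. The lowest WT means were 71.76 in RGCs (Zfp708) and 75.31 in non-RGCs (Zfp58). The lowest mKO means were 114.8 and 100.7. The other 82 Zfp genes fell below the threshold in at least 1 table, although 67 of them had reads in all 4 groups of libraries. In the RGC table the members nearest to the threshold were Zfp708 at 103.8 and Zfp963 at 106.1, and the nearest genes left out were Zfp418 at 99.89 and Zfp820 at 97.09. In the non-RGC table they were Zfp708 at 103.3 and Zfp112 at 110.3 inside, and Zfp59 at 99.59 and Zfp14 at 98.85 outside.

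Zfp symbols are given in the mouse to proteins with zinc fingers, short folds held by a zinc ion, most of them of the C2H2 kind, which dock side by side in the groove of DNA and read its bases. Many also carry a KRAB domain at the start of the protein, whose A box binds the corepressor TRIM28; TRIM28 in turn brings the histone methyltransferase SETDB1 and HP1 proteins and silences the bound DNA, often a retroelement. KRAB zinc finger genes lie in chromosomal clusters that grew by gene duplication. Ezh2, the gene deleted in this study, encodes the histone H3 lysine 27 methyltransferase of Polycomb repressive complex 2, which sits mainly at promoters rich in CG dinucleotides and keeps developmental genes silent.

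RNA was measured by poly-A RNA-seq in 4 groups of 3 libraries from C57/BL6 retinas at postnatal day 0. The mKO mice carried Math5-Cre together with floxed Ezh2 on both alleles (Math5Cre+;Ezh2f/f), and the labels call the other mice wild type (WT), whereas the study's methods name floxed littermates as controls unless stated otherwise. Retinas were dissociated with papain, cells bound by magnetic beads against CD90 (Thy-1) were taken as RGCs, and the unbound cells as non-RGCs. Math5-Cre acts in the RGC lineage from a knocked-in allele and marks only part of the RGCs. The paper adds that Math5-positive progenitors also give a small share of other retinal cells, such as photoreceptors and amacrine cells. Libraries of mKO RGCs thus mix cells with and without the deletion, and mKO non-RGCs may hold deleted cells too. The knocked-in allele and the deletion came together in mKO mice, so their effects cannot be told apart here. No dose, drug or injury was applied to any group.

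Reads on genes came to between 7139633 and 13014004 per library. Libraries are named A, B and C within a group by depth, A being the deepest, since the reads could be recovered for each library but carried no sample name. All 12 RGC markers tested were higher in WT RGCs than in WT non-RGCs, by levels set across tables that were normalised separately. Ezh2 itself gave 1189.9, 1206.1 and 1678.2 normalised reads in the WT RGC libraries and 1354.2, 1476.2 and 1442.6 in the mKO RGC libraries, a log2 fold change of 0.09 (SE 0.13, adjusted p = 0.637, limma). In non-RGCs its log2 fold change was 0.13 (SE 0.15, adjusted p = 0.584). These reads cover the whole gene and do not test the deleted exons. In these libraries genotype therefore rests on the labels, and every direction below rests on it. The study reports genotyping from tail DNA, and less Ezh2 in P0 mKO RGCs by qPCR and Western blot. It also reports a change of Ezh2 in its RNA-seq of RGCs, which the values above do not show. In mKO RGCs 10 of the 12 RGC markers were lower, with a summed level of 23384 to 24514 normalised reads against 32395 to 35033 in WT, and 4 of 4 blood markers tested were higher (234.3 to 278.3 against 106.4 to 120.2 in sum). In mKO non-RGCs 8 of the 12 RGC markers were higher (6008 to 8209 against 5635 to 5968 in sum) and the same 4 blood markers were higher (441.2 to 675.0 against 111.9 to 176.1). In mKO RGCs and non-RGCs respectively, 5 and 5 of 10 photoreceptor, 5 and 2 of 8 amacrine, 4 and 1 of 10 progenitor and 2 and 1 of 7 tested astrocyte and Mueller markers were lower, beside 21.2% and 6.43% of all genes. Of 5 endothelial markers, and of 5 microglial markers in RGCs and 4 in non-RGCs, 0 passed (at an unadjusted p under 0.05, 0 and 3 endothelial and 3 and 0 microglial). With trends of GC content and read density removed, a correction described below, 2 RGC markers fell in mKO RGCs and 5 rose in mKO non-RGCs, and the 4 blood markers were higher in both. After that correction 2 and 1 photoreceptor, 1 and 0 amacrine, 0 and 0 progenitor and 0 and 1 astrocyte and Mueller markers were lower, beside 4.11% and 1.13% of all genes (of the lists at 0, 4 amacrine markers in non-RGCs, 0 and 2 progenitor markers and 1 astrocyte and Mueller marker in RGCs had an unadjusted p under 0.05). In mKO RGCs 1 photoreceptor marker was higher after that correction, beside 2.21% of all genes. The part of these cell mixtures in the results on Zfp genes was not tested, and fewer cells of a type cannot be told apart from less RNA per cell.

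Sorted by their proteins, 130 of the 256 members held a KRAB A box, with a median of 12 C2H2 fingers and up to 33 in Zfp619. A further 103 had 3 or more fingers and no A box, with a median of 9 fingers and up to 40 in Zfp142. The last 23 had fewer than 3 such fingers, among them 9 with none. These include Zfp36, whose fingers are of another kind, and Zfp783 and Zfp939, which are annotated as transcribed pseudogenes and have no protein to search. The KRAB genes were also the poorest in G and C, with an exon GC content of 44.5% ± 5.2 (SD over 130 genes) against 50.2% ± 6.5 in the other genes with 3 or more fingers and 49.7% ± 6.7 in those with fewer. Their median level in WT RGCs was lower as well, 68.25 normalised reads per kb of exon against 153.1 and 189.3.

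Promoters are shown because Polycomb repressive complex 2 is known from CG-rich promoters and because the members' number of CG is described by direction of change below. RefSeq promoters of 250 bases before to 50 bases after the start (GRCm38.p6) were found for 213 members. The sequences below belong to members named in the results, chosen after their values were seen: Zfp758, Zfp160 and Zfp949, whose reads were higher in mKO RGCs, and Zfp628, Zfp579 and Zfp444, whose reads were lower. Capitals mark the dinucleotide CG, which reads the same on both strands, and each sequence runs 5′ to 3′ on the strand of its gene.
Zfp758 promoter, chr17:22361213-22361512, plus strand: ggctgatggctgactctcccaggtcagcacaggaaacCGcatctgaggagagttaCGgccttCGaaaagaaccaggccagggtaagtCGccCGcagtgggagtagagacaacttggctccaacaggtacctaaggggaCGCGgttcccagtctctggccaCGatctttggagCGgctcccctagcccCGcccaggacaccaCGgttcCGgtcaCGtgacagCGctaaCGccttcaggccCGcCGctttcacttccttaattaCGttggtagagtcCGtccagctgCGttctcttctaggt
Zfp160 promoter, chr17:21008691-21008990, plus strand: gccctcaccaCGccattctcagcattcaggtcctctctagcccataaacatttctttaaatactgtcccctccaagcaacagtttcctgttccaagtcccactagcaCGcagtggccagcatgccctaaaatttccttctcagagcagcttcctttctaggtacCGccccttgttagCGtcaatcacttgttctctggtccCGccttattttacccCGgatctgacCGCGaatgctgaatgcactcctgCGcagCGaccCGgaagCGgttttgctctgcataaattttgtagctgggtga
Zfp949 promoter, chr9:88547770-88548069, plus strand: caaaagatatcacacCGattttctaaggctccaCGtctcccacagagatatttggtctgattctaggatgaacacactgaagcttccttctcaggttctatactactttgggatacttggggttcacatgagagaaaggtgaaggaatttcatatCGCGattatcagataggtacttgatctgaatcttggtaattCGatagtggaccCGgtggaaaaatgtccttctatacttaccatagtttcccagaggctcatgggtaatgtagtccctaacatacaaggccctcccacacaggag
Zfp628 promoter, chr7:4914967-4915266, plus strand: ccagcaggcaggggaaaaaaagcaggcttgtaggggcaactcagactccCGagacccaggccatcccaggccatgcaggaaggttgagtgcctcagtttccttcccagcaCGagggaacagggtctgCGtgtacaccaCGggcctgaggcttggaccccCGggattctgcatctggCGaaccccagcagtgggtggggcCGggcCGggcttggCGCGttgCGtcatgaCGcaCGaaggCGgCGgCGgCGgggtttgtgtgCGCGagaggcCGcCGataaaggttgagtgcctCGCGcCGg
Zfp579 promoter, chr7:4996052-4996351, minus strand: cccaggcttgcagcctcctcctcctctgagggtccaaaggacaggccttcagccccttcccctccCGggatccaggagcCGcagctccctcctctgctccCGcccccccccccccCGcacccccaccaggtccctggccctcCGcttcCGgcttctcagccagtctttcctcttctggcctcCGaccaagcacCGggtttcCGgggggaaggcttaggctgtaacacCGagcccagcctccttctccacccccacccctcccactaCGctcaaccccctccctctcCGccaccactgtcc
Zfp444 promoter, chr7:6172263-6172562, plus strand: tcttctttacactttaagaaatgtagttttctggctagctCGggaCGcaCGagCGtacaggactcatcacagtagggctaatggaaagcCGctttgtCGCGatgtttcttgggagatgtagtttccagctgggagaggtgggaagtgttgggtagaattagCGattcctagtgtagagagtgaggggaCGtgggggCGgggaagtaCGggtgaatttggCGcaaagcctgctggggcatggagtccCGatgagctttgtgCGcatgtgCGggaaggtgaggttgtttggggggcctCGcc
The windows of Zfp758, Zfp160 and Zfp949 hold 20, 12 and 6 CG and have a GC content of 59.3%, 51.3% and 43.3%. Those of Zfp628, Zfp579 and Zfp444 hold 24, 12 and 16 CG and have a GC content of 66.0%, 69.0% and 54.3%. The rising and the falling genes shown thus overlap in CG count. Over all 213 members the median was 16 CG per window against 7 over 27025 promoters of the same length, of which 94.2% hold at least 1 CG. At least 15 CG were found in 58.2% of the members' windows and in 35.2% of all. The members were chosen by their level and the 27025 promoters were not, and whether level bears on this difference was not tested. KRAB members had a median of 13 CG, members with 3 or more fingers and no A box 20, and members with fewer fingers 21. The median was 13 CG in 106 windows of members that rose in mKO RGCs, 22 in 32 windows of members that fell, and 17 in 75 windows of members that passed the test in neither direction. These counts describe the windows and say nothing of Polycomb binding, which was not measured.

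In WT RGCs the members' mean levels ran from 71.76 normalised reads (Zfp708) over a median of 459.1 to 3210.4 (Zfp609), and together they held 1.45% of the normalised reads. Their share was 1.70% in mKO RGCs, 1.81% in WT non-RGCs and 1.95% in mKO non-RGCs, where RGC and non-RGC tables were normalised separately. Per kb of exon the highest member in WT RGCs was Zfp428 at 801.9 normalised reads per kb, followed by Zfp580 at 649.9, Zfp358 at 504.1, Zfp219 at 470.5 and Zfp362 at 447.5. None of these 5 has a KRAB A box. All 5 were lower in mKO RGCs than in WT RGCs, with log2 fold changes of -0.68, -0.77, -0.53, -0.73 and -0.45. The adjusted p lay between 0.000651 and 0.00980 (limma). Of all genes tested 21.2% were lower in mKO RGCs, and of those as well expressed as the members 29.4%. With trends of GC content and read density removed, none of these 5 genes passed, at log2 fold changes of -0.03, -0.12, 0.01, -0.16 and 0.03. Their order in non-RGCs was different, with Zfp219 at 621.5 and Zfp428 at 607.3 normalised reads per kb ahead of Zfp358 at 498.9, Zfp362 at 493.2 and Zfp580 at 410.3.

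The comparison of mKO with WT RGCs asks which genes differ where Math5-Cre is present and Ezh2 is deleted in part of the RGCs. Of the 256 members, 118 (46.1%) rose and 40 (15.6%) fell in mKO RGCs at an adjusted p under 0.05 (limma on log2(normalised reads + 1), adjusted over 16085 genes), and 98 passed in neither direction. Among all genes tested 16.3% were higher and 21.2% lower, and of the 10990 genes as well expressed as the members, 17.1% were higher and 29.4% lower. The members' median log2 fold change was 0.25, with a range from -0.80 to 1.25 and 173 members above 0, beside a median of -0.00 over all genes tested and -0.09 over the well-expressed ones. All members passed the filter on low values. Every mKO library lay above every WT library for 137 members and below for 52, where all genes gave 24.8% and 28.2%. By the study's own thresholds, a 1.5-fold change with an unadjusted p under 0.05, 65 members passed, 56 of them higher, beside 16.3% of all genes. With libraries scaled by total reads in place of the authors' size factors, which lifts the median of all genes to 0.12 on the log2 scale, the split was 143 higher to 22 lower and the members' median 0.37.

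The changes of the members followed the GC content of their exons, as did those of all genes. Over the 256 members the log2 fold change and the exon GC content had a Spearman rho of -0.86 in RGCs, against -0.63 over all genes tested; genes of 1 library set share its base composition trend, so this is a description. All genes tested were divided by GC content into 5 bins of equal size. In the bin lowest in GC (up to 43.8%), 82 of 92 members rose, 1 fell and their median log2 fold change was 0.64, where 49.0% of all genes of the bin rose, 3.74% fell and the median was 0.41. In the next bin 27 of 50 members rose and 2 fell with a median of 0.33, beside 22% and 7.48% of all genes and a median of 0.19. In the middle bin 9 of 41 members rose and 1 fell (median 0.14), beside 6.67% and 16.3% of all genes (median -0.00). In the fourth bin 0 of 36 members rose and 7 fell (median -0.12), beside 2.39% and 29% (median -0.20). In the bin highest in GC (from 55.3%), 0 of 37 members rose and 29 fell (median -0.40), beside 0.786% and 50% (median -0.42). The direction of a member thus went with its bin, and in each bin the members' median lay above that of all genes. In the bin highest in GC the medians were close (-0.40 and -0.42), and a larger share of members than of all genes fell there. The shares per bin cover all genes tested, including genes with fewer reads than any member.

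**Figure D1:**
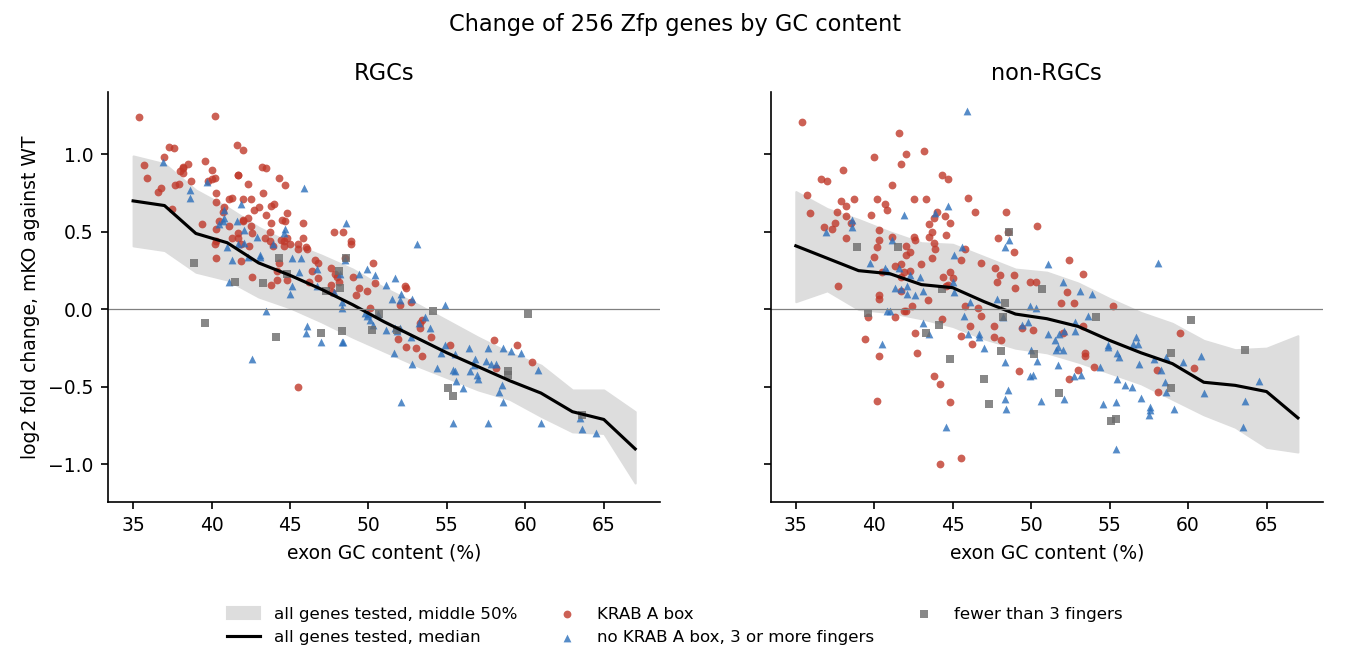
Log2 fold change of each of the 256 Zfp genes in mKO against WT (vertical axis) by exon GC content in percent (horizontal axis), in RGCs on the left and non-RGCs on the right, with the median of all genes tested as a line and their middle 50% as a band. Red points are genes with a KRAB A box, blue triangles genes with 3 or more fingers and no A box, and grey squares genes with fewer than 3 fingers; the members fall from the upper left to the lower right along the line for all genes, with a rho of -0.86 in RGCs and -0.66 in non-RGCs.

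When each library's trend with GC content was removed before the test, 46 members were called as higher and 7 as lower in mKO RGCs, beside 5.13% and 9.01% of all genes, and 40 and 6 of them had been called in that direction without it. The members' median was then 0.20 against 0.05 over all genes, with 207 members above 0. When the trend with reads per base of exon was removed along with that of GC content, 18 members were higher and 5 lower, beside 2.21% and 4.11% of all genes, and the median was 0.15 against 0.03. Of these 23 members, 16 and 5 had been called in the same direction without the correction. This smaller count rests on single libraries: without WT RGC library C it was 100, without WT RGC library A or B it was 5 or 2, and without any 1 of the mKO RGC libraries it was 0, with 68 to 80 members at an unadjusted p under 0.05 there and 99 with all libraries. Without the correction the count of 158 ranged from 109 to 183 when 1 library was left out.

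The KRAB group had the highest median. Of 130 KRAB members 88 rose and 6 fell in mKO RGCs, with a median log2 fold change of 0.46. Of the 103 members with 3 or more fingers and no A box 27 rose and 29 fell (median -0.03), and of the 23 with fewer fingers 3 rose and 5 fell (median -0.03). Within the bin lowest in GC, 64 of 66 KRAB members rose and 0 fell (median 0.71), and 17 of 22 members with 3 or more fingers and no A box rose and 1 fell (median 0.49). The next bin had 19 rises and 1 fall among 31 KRAB members (median 0.41) and 7 rises and 0 falls among 14 of the other finger genes (median 0.25), and the middle bin 5 rises and 0 falls among 16 (median 0.21) and 3 rises and 1 fall among 19 (median 0.01). In the fourth bin both medians were -0.12, with 0 rises in either group and falls in 2 of 13 KRAB members and 5 of 20 others. In the bin highest in GC 0 members rose, and 3 of 4 KRAB members (median -0.29) and 22 of 28 others (median -0.40) fell. With GC and read density trends removed, 12 KRAB members were higher and 1 lower (median 0.21), against 4 and 4 of the other genes with 3 or more fingers (median 0.07) and 2 and 0 of those with fewer (median -0.03). The difference between the protein groups was not tested, and the KRAB genes differ from the others in GC content, level and position at the same time. The 3 mKO RGC libraries lay close together in this respect: against the mean of the WT libraries, the median of the KRAB members was shifted by 0.48 to 0.49 on the log2 scale in each, while the WT RGC libraries lay between -0.01 and 0.02.

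**Figure D2:**
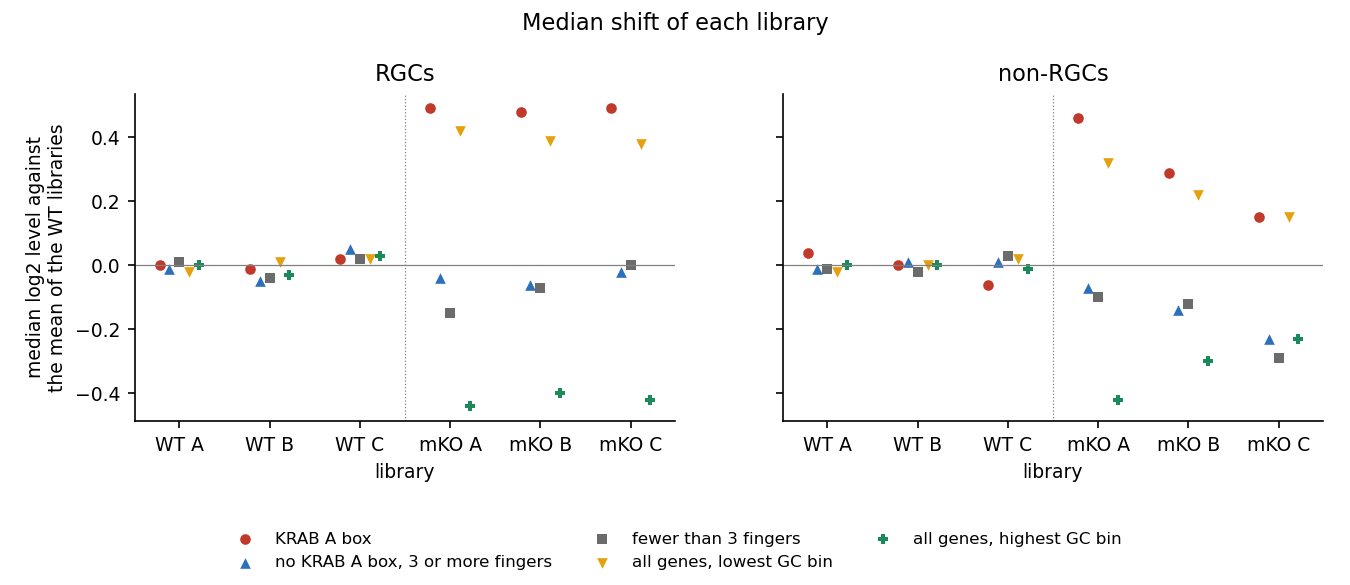
Median shift of gene groups in each library against the mean of the WT libraries of its fraction (vertical axis, log2 scale), by library (horizontal axis), for the members split by protein and for all genes of the bins lowest and highest in GC content. The 3 mKO RGC libraries place KRAB members at 0.48 to 0.49 and all genes of the highest GC bin at -0.44 to -0.40, whereas the mKO non-RGC libraries spread from 0.46 in library A to 0.15 in library C for KRAB members.

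The 10 largest rises in mKO RGCs were those of Zfp229, Zfp758, Zfp58, Zfp712, Zfp942, Zfp160, Zfp932, Zfp709, Zfp654 and Zfp51, of which all but Zfp654 carry a KRAB A box. Zfp229 (chr17:21730795-21769342, plus strand, GRCm38) gave 205.8, 220.4 and 220.6 normalised reads in the WT RGC libraries and 505.2, 542.2 and 496.9 in the mKO RGC libraries. The groups were far apart, with a fold change of 2.39 (log2 1.25, SE 0.08, adjusted p = 0.000644, limma), and the gene remained called with both trends removed (log2 0.75, adjusted p = 0.00880). Zfp758 (chr17:22361453-22377281, plus strand) went from 131.8, 140.0 and 130.7 to 360.4, 292.3 and 304.0 normalised reads, a fold change of 2.38 (log2 1.24, SE 0.12, adjusted p = 0.000722). Its exons have the lowest GC content of all members, 35.4%, and with both trends removed its log2 fold change was 0.71 (adjusted p = 0.0217). Zfp58 (chr13:67490167-67500555, minus strand) was among the weaker members and went from 64.87, 74.91 and 75.86 to 146.6, 156.7 and 147.7, a fold change of 2.09 (log2 1.06, SE 0.14, adjusted p = 0.00168). With fewer than 100 reads in each WT RGC library, Zfp58 met the entry rule only through its mKO libraries. It no longer passed with both trends removed (log2 0.53, adjusted p = 0.0651). Zfp160 (chr17:21008903-21043070, plus strand), the first gene of the chromosome 17 run described next, went from 434.8, 397.3 and 371.1 to 821.1, 794.8 and 836.6 (fold change 2.04, adjusted p = 0.000644). The other 6 had fold changes of 1.93 to 2.10, every mKO library of each lay above every WT library, and of these 6 Zfp942 and Zfp654 still passed with both trends removed.

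Many members lie in runs of neighbouring Zfp genes, in which each gene is within 500 kb of the next. There were 11 runs with at least 5 members, which held 95 of the 256, and 46 of these 95 rose and 17 fell, beside 72 and 23 of the 161 members outside such runs, so these counts do not set the members in runs apart. The runs differed among themselves. The run on chromosome 17 from 21008903 to 23599487 holds 14 members of 23 Zfp genes, all KRAB, from Zfp160 to Zfp13. Here 12 rose and 1 fell, with a median log2 fold change of 0.88, and with both trends removed all 14 lay above 0, 5 passed and the median was 0.36. A second run on chromosome 17, from 32765496 to 33631779, gave 10 rises among 11 members and no fall (median 0.61), of which 2 were higher with both trends removed. On chromosome 13, from 66669928 to 67827002, all 7 members rose (median 0.87), among them Zfp712, Zfp708, Zfp58 and Zfp87, and 1 was higher with both trends removed. All 5 members of the run on chromosome 9, from 20345136 to 20605409, rose as well (median 0.52). Among all genes tested 16.3% rose, and 2.21% were higher with both trends removed. In the bin lowest in GC, 49.0% of all genes and 82 of 92 members rose.

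The other 7 runs were less uniform. The run on chromosome 7 from 4915217 to 5053723 holds Zfp628, Zfp579, Zfp865, Zfp784 and Zfp580, none of them KRAB, and 4 of the 5 fell (median -0.73), of which Zfp579 and Zfp865 still passed with both trends removed. On chromosome 6, from 47819266 to 48623227, 0 of 10 members rose and 4 fell (median -0.19), and with both trends removed none passed. The runs on chromosome 7 from 24081924 and from 127233061 each gave 0 rises and 3 falls among 10 members, and medians of 0.10 and -0.18, whereas that from 29768552 gave 5 rises and 0 falls among 12 (median 0.22). Also on chromosome 7, the run from 12415153 gave 4 rises and 0 falls among 6 members (median 0.39), and the run from 6131491, which holds Zfp444, 3 rises and 2 falls among 5 (median 0.39). The 4 runs of the preceding paragraph have a median GC content of 38.4% to 41.3% and the run from Zfp628 to Zfp580 one of 57.6%. Among all genes tested 21.2% fell, and 4.11% were lower with both trends removed. In the bin highest in GC, 50% of all genes and 29 of 37 members fell. Genes of a run can be near-identical copies, and how the authors' counting divided reads that match several of them was not tested.

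**Figure D3:**
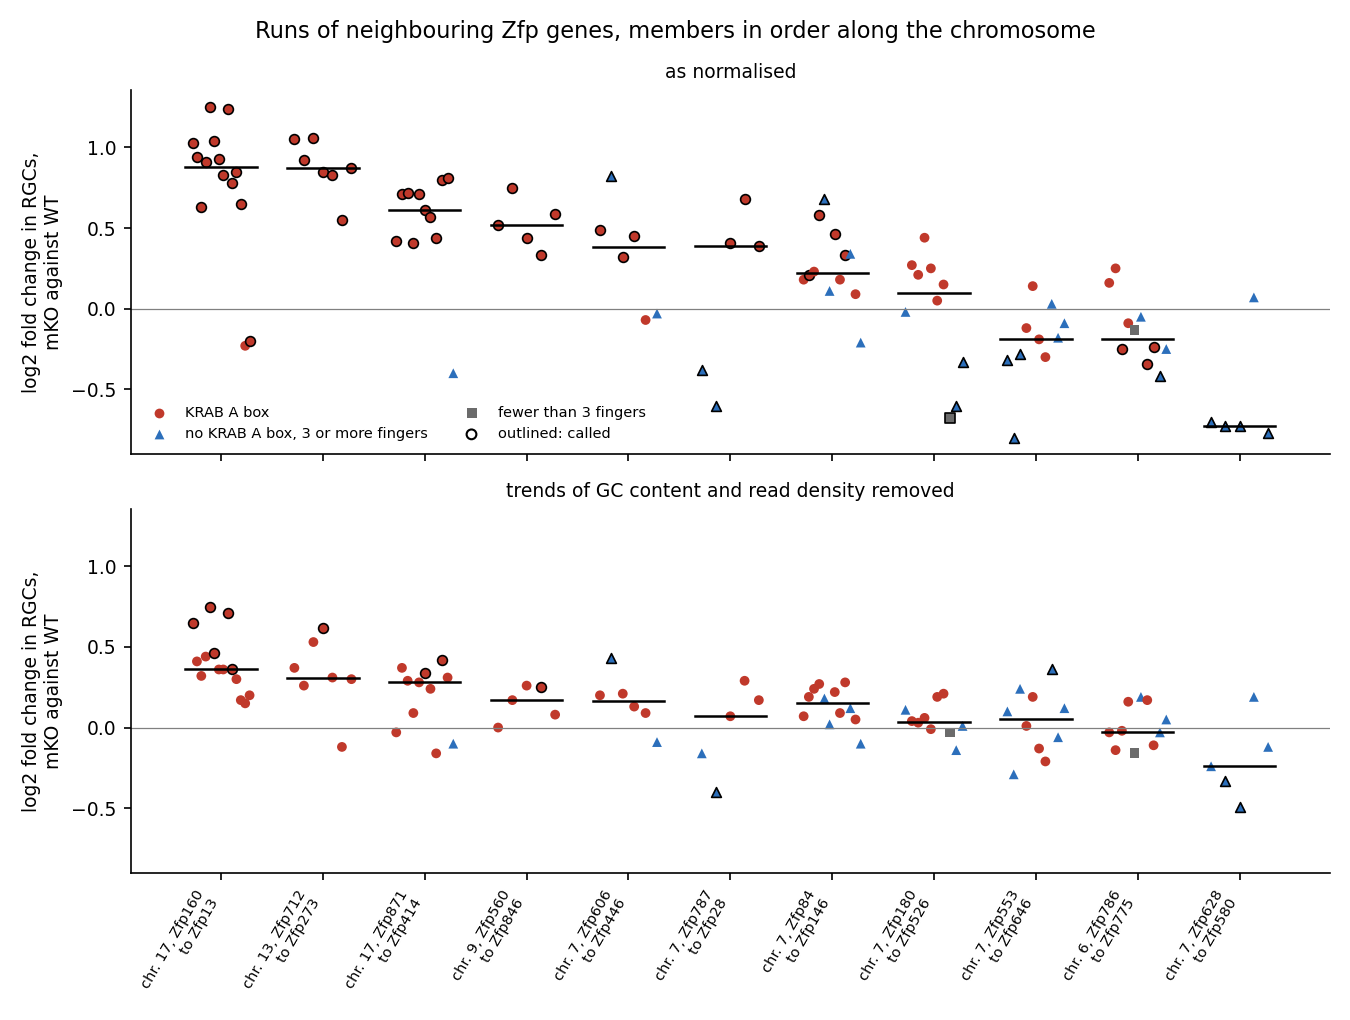
Log2 fold change in RGCs, mKO against WT (vertical axis), of the members of each of the 11 runs (horizontal axis, named by their ends, members in their order on the chromosome), as normalised above and after removal of both trends below. Bars are medians and outlined symbols passed the test; the medians of the chromosome 17 run from Zfp160 to Zfp13 are 0.88 above and 0.36 below.

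The 10 largest falls were those of Zfp771, Zfp580, Zfp219, Zfp865, Zfp579, Zfp628, Zfp428, Zfp574, Zfp444 and Zfp395, and none of these carries a KRAB A box. Zfp771 (chr7:127244274-127254803, plus strand) gave 699.4, 578.6 and 723.6 normalised reads in WT RGCs and 353.4, 423.2 and 371.7 in mKO RGCs, a fold change of 0.574 (log2 -0.80, SE 0.11, adjusted p = 0.00225). Its exons are the richest in GC of all members, 64.5%, and with both trends removed its log2 fold change was -0.29 (adjusted p = 0.126). Zfp865 (chr7:5020376-5036768, plus strand), a protein with 20 fingers, went from 1188.9, 1122.5 and 1207.9 to 702.4, 692.5 and 727.4, a fold change of 0.603 (log2 -0.73, SE 0.06, adjusted p = 0.000644). It kept its call with both trends removed (log2 -0.49, adjusted p = 0.00939). Its neighbour Zfp579 (chr7:4983483-4996158, minus strand) went from 1278.1, 1119.3 and 1205.5 to 691.0, 751.5 and 730.2 (log2 -0.73, adjusted p = 0.000737) and also kept its call (log2 -0.33, adjusted p = 0.0262). Zfp444 (chr7:6172226-6193811, plus strand) went from 1337.9, 1275.6 and 1499.6 to 861.2, 946.0 and 894.9 (log2 -0.60, adjusted p = 0.00152) and kept its call at a GC content of 52.1% (log2 -0.40, adjusted p = 0.0172). The remaining 6, Zfp580, Zfp219, Zfp628, Zfp428, Zfp574 and Zfp395, had fold changes of 0.586 to 0.679, and none of them passed with both trends removed.

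Some members went against their base composition. Zfp90 (chr8:106415327-106426598, plus strand), a KRAB gene with a GC content of 45.5%, had 245.3, 204.1 and 232.2 normalised reads in WT RGCs and 163.2, 149.4 and 167.5 in mKO RGCs. It fell by 0.50 on the log2 scale (SE 0.12, adjusted p = 0.0158), and with both trends removed by 0.85 (adjusted p = 0.0203). Without WT RGC library A, or without mKO RGC library A or B, the adjusted p of Zfp90 as normalised was 0.0562, 0.0533 or 0.0663. Zfp622 (chr15:25984366-25998481, plus strand), known for the maturation of the large ribosomal subunit, was the only member of the lowest GC bin that fell. Its reads were 1011.6, 981.4 and 1037.5 in WT RGCs and 800.1, 850.1 and 776.4 in mKO RGCs, a log2 fold change of -0.32 (SE 0.06, adjusted p = 0.00652) and of -0.61 with both trends removed (adjusted p = 0.00777). With libraries scaled by total reads its adjusted p was 0.0549. These genes were chosen for description after their values were seen.

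**Figure D4:**
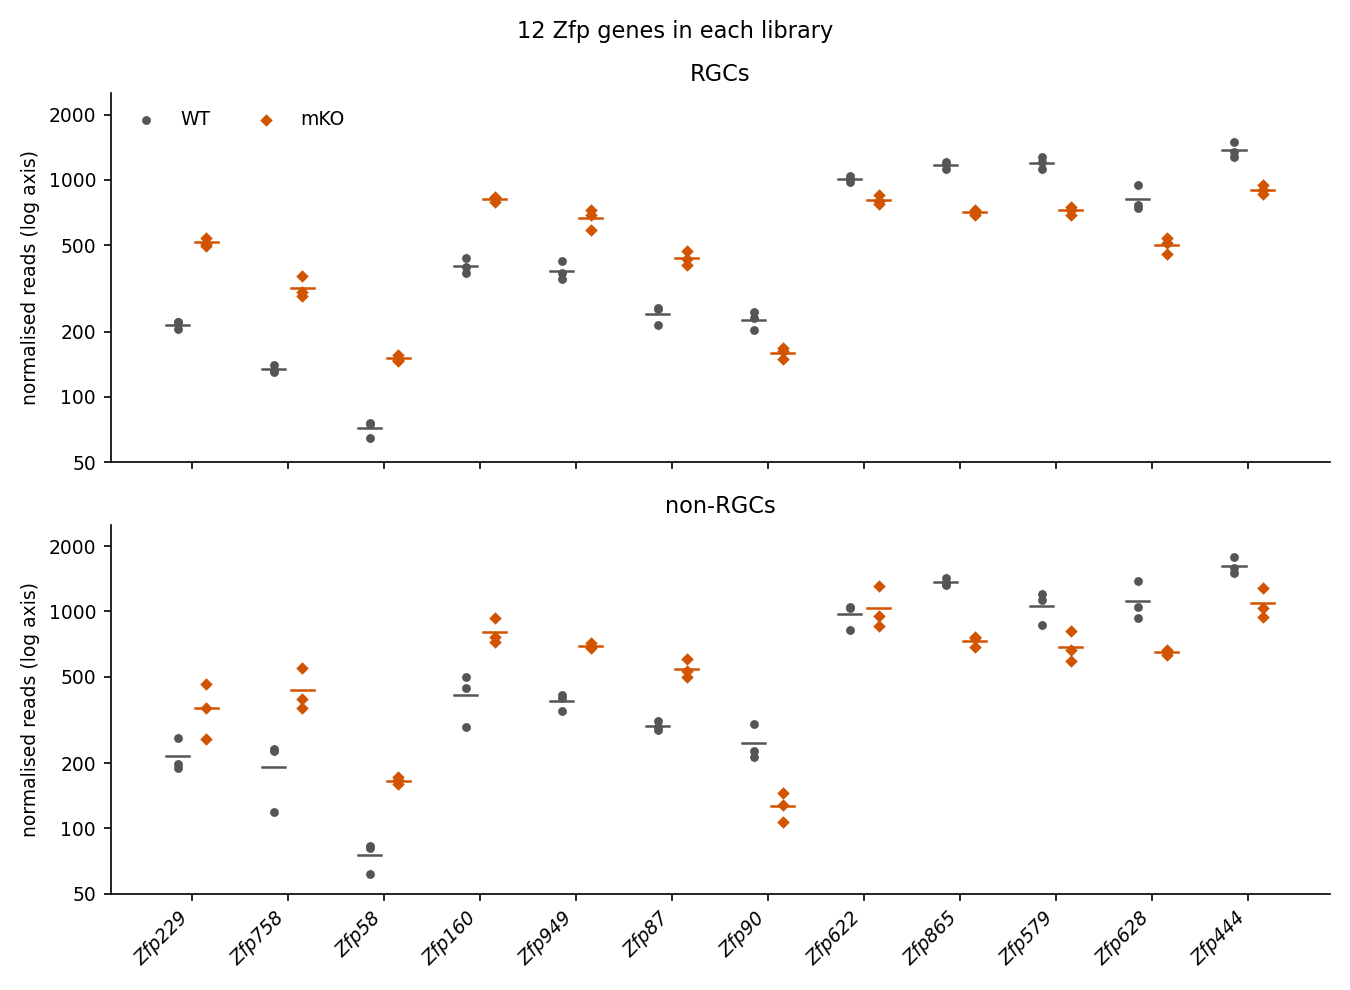
Normalised reads (vertical log axis) of 12 Zfp genes in each library, RGCs above and non-RGCs below, with WT libraries as grey circles, mKO libraries as orange diamonds and the group mean as a bar. In RGCs the mKO and WT libraries do not overlap for any of the 12 genes, which were chosen after their values were seen, so this describes the choice only. Of all genes, 24.8% had every mKO RGC library above every WT RGC library and 28.2% below. Zfp229 goes up from a mean of 215.6 to 514.7 and Zfp865 down from 1173.1 to 707.4.

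Members of known role were followed as lists. Of 10 members that handle RNA or protein, 3 rose and 2 fell in mKO RGCs (median log2 fold change 0.03), beside 16.3% and 21.2% of all genes, so the falls were near the share of all genes. Zfp451, a SUMO ligase, rose by 0.51 on the log2 scale (adjusted p = 0.00549), as did Zfp326, which couples transcription to splicing, by 0.30 (adjusted p = 0.00741), and Zfp830, a splicing protein, by 0.33 (adjusted p = 0.0130). Zfp598, the ubiquitin ligase that senses collided ribosomes, fell by 0.40 (adjusted p = 0.00434), along with Zfp622. Zfp36, or tristetraprolin, which speeds the decay of AU-rich mRNAs, gave 273.7, 427.7 and 527.5 normalised reads in WT RGCs and 335.9, 303.4 and 210.8 in mKO RGCs (adjusted p = 0.180), and its groups overlap, although it passed without WT RGC library A (log2 -0.77, adjusted p = 0.0438). Zfp106, Zfp207, Zfp346 and Zfp91 did not pass as normalised. With the GC trend alone removed, Zfp207 was lower (-0.50, adjusted p = 0.00823) and Zfp346 higher (0.24, adjusted p = 0.0421). Without WT RGC library C, Zfp106 passed at 0.18. After removal of both trends, Zfp830 (0.45, adjusted p = 0.0217) and Zfp622 passed, and Zfp598 and Zfp326 changed sign to 0.10 and -0.10. Without mKO RGC library A or C the adjusted p of Zfp830 as normalised was 0.0574 or 0.0584.

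Of 12 members tied to neural or retinal development, 4 rose and 3 fell in mKO RGCs (median -0.01), beside the same 16.3% and 21.2%, or 17.1% and 29.4% of the well-expressed genes, so here too the falls were near the background. Zfp711, an X-linked gene of intellectual disability, rose from 827.1, 771.9 and 622.0 to 1211.9, 1205.1 and 1220.5 normalised reads (log2 0.72, adjusted p = 0.00249). Zfp292 rose from 2065.7, 2329.7 and 2036.5 to 3016.3, 2945.0 and 3441.4 (log2 0.55, adjusted p = 0.00281), and Zfp644, linked to myopia, by 0.43 (adjusted p = 0.00126). Zfp407 rose by 0.35 (adjusted p = 0.0283), a call lost without WT RGC library A or without any mKO RGC library (adjusted p of 0.0519 to 0.105). Zfp503, a repressor known from the developing striatum, fell by 0.42 (adjusted p = 0.00442), Zfp513, a gene of retinitis pigmentosa, by 0.39 (adjusted p = 0.00640), and Zfp335, a microcephaly gene, by 0.27 (adjusted p = 0.0412). The call of Zfp335 was lost without any 1 of the mKO RGC libraries A and B and the WT RGC libraries A and B (adjusted p of 0.0817 to 0.145). Only Zfp292 (0.37, adjusted p = 0.0437) and Zfp703 (0.42, adjusted p = 0.0261) of the 12 passed with both trends removed, and Zfp703 had a log2 fold change of -0.03 without the correction. With both trends removed Zfp503, Zfp513 and Zfp335 changed sign to 0.03, 0.13 and 0.17, and Zfp407 to -0.07. Zfp423, Zfp521, Zfp536 and Zfp462, which act in neural precursors and neurons, had log2 fold changes between -0.25 and 0.10 in RGCs and did not pass. Without WT RGC library C, Zfp423, Zfp521 and Zfp536 passed at -0.30, -0.14 and 0.27.

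Among 6 factors of promoters 3 rose and 1 fell in mKO RGCs (median 0.28), beside 16.3% and 21.2% of all genes. Zfp148 rose by 0.40 (adjusted p = 0.00370), Zfp281, a regulator of pluripotent cells, by 0.34 (adjusted p = 0.00833) and Zfp143, which binds promoters at loop anchors, by 0.33 (adjusted p = 0.0181). The call of Zfp143 was lost without mKO RGC library A or B or WT RGC library A or B (adjusted p of 0.0567 to 0.0733). Zfp219 fell, and Zfp384 and Zfp263 had log2 fold changes of -0.12 and 0.23. Zfp263 passed without WT RGC library C (0.31, adjusted p = 0.00510). With both trends removed 0 of the 6 passed, 3 of them at an unadjusted p under 0.05. Of 6 KRAB genes known for imprinting or retroelements, Zfp932 (0.98, adjusted p = 0.00199) and Zfp708 (0.92, adjusted p = 0.00752), both tied to endogenous retroviruses, rose and 0 fell (median 0.29), beside the same shares. The guardians of imprints, Zfp57 and Zfp445, had log2 fold changes of 0.11 (adjusted p = 0.619) and 0.19 (adjusted p = 0.0744), and Zfp568 and Zfp809, which silence a placental Igf2 transcript and a murine leukaemia provirus, 0.18 and 0.40. Without WT RGC library C, Zfp568 and Zfp809 passed at 0.27 and 0.44. Of these 6, 0 passed with both trends removed, 1 at an unadjusted p under 0.05.

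In non-RGCs fewer members passed the test. There 24 members (9.38%) were higher and 20 (7.81%) lower in mKO, beside 4.18% and 6.43% of the 15326 genes tested and 2.73% and 8.32% of the well-expressed ones. Their median log2 fold change was 0.04, from -1.0 to 1.28 with 135 above 0, beside -0.03 over all genes. Every mKO library lay above every WT library for 72 members and below for 45, beside 17.5% and 19.2% of all genes. By the study's thresholds 50 passed, 33 of them higher, beside 15.7%. The count rests on single libraries: of 44 members called, 1 was still called without mKO non-RGC library B, 7 without WT non-RGC library B and 19 without WT non-RGC library A, and between 25 and 36 without any 1 of the other 3. Scaled by total reads, the split was 52 higher to 5 lower and the median 0.21, beside 0.15 over all genes.

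In non-RGCs too the KRAB members had the highest median, and differences between the protein groups were not tested. Of the KRAB members 22 rose and 3 fell (median 0.27), of the others with 3 or more fingers 2 rose and 14 fell (median -0.18), and of those with fewer fingers 0 rose and 3 fell (median -0.15). GC content and log2 fold change had a Spearman rho of -0.66 over the members and -0.41 over all genes. With the GC trend removed 4 members were higher and 2 lower, beside 0.917% and 0.607% of all genes, and with both trends removed 5 and 4, beside 0.983% and 1.13%. The latter 9 were Zfp239, Zfp87, Zfp949, Zfp868 and Zfp830, higher, and Zfp398, Zfp90, Zfp865 and Zfp41, lower, and when 1 library was left out this count ranged from 0 (without mKO non-RGC library B or C or WT non-RGC library B) over 2 (without WT non-RGC library A) to 14 (without mKO non-RGC library A), with 45 to 73 members at an unadjusted p under 0.05. The KRAB members' shift differed between the mKO non-RGC libraries, at 0.46, 0.29 and 0.15 in libraries A, B and C.

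The largest rise in non-RGCs was that of Zfp239 (chr6:117862100-117873291, plus strand), which gave 104.7, 107.4 and 99.06 normalised reads in WT and 297.4, 250.3 and 218.9 in mKO. The groups were well apart, at a fold change of 2.46 (log2 1.28, SE 0.19, adjusted p = 0.00815), and in RGCs the same gene rose by 0.78 (adjusted p = 0.00528). Zfp758, Zfp58, Zfp963 and Zfp160 followed with log2 fold changes of 1.21, 1.14, 1.02 and 1.00. The largest fall was that of Zfp398 (chr6:47835661-47873537, plus strand), from 415.9, 378.4 and 545.3 to 332.9, 192.8 and 166.6 (log2 -1.0, SE 0.26, adjusted p = 0.0414), whereas its RGC libraries overlapped (log2 0.25, adjusted p = 0.236). Zfp90 went from 213.8, 228.4 and 303.4 to 144.9, 128.5 and 107.3 (log2 -0.96, adjusted p = 0.0247). Zfp865 fell from 1321.8, 1348.9 and 1428.5 to 764.4, 751.0 and 682.1 (log2 -0.90, SE 0.12, adjusted p = 0.00603), and Zfp628 and Zfp395 by 0.76 and 0.71. Zfp865 was the member still called without mKO non-RGC library B; without it the adjusted p of the other 9 genes just named lay between 0.0567 and 0.159. Of the 12 developmental genes 3, Zfp423, Zfp462 and Zfp335, fell in non-RGCs, beside 6.43% of all genes, by 0.65, 0.58 and 0.64 (adjusted p of 0.0281, 0.0376 and 0.0490), and each of these calls was lost without mKO non-RGC library B (adjusted p of 0.100 to 0.141). Each was also lost without WT non-RGC library B or C (adjusted p of 0.0543 to 0.109, limma). The calls of Zfp462 and Zfp335 were lost without WT non-RGC library A or mKO non-RGC library C as well. With both trends removed none of the 3 passed (adjusted p of 0.129 to 0.322).

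Both fractions shared members. In total 38 members passed in both, 24 higher and 14 lower in both and 0 in opposite directions, which is 24.1% of the 158 called in RGCs and 86.4% of the 44 called in non-RGCs. A further 120 passed in RGCs alone, 6 in non-RGCs alone and 92 in neither. Of the 14894 genes tested in both fractions, 2.69% were higher in both, 5.15% lower in both, 0.101% called in opposite directions, 31.4% called in RGCs alone and 2.73% in non-RGCs alone. Over all these genes the calls shared by both fractions, in either direction, were 20.2% of the RGC calls and 74.4% of the non-RGC calls, and the difference from the members' shares was not tested. The sign was the same in both fractions for 198 of the 256 members. The log2 fold changes of both fractions had a Pearson r of 0.78 over the 256 members, a description only, since the libraries of both fractions follow a trend with GC content. The 6 shared members with the strongest support in the weaker fraction were Zfp865, Zfp239, Zfp395, Zfp949, Zfp868 and Zfp87. Zfp949 (chr9:88548020-88571061, plus strand) had 422.7, 371.3 and 350.1 normalised reads in WT RGCs and 584.6, 688.8 and 728.4 in mKO RGCs, and 410.5, 399.6 and 349.3 in WT and 675.0, 716.4 and 682.1 in mKO non-RGCs. Its log2 fold changes were thus 0.80 (adjusted p = 0.00209) and 0.84 (adjusted p = 0.0101). Zfp87 (chr13:67515781-67526177, minus strand) was as even, with 0.85 (adjusted p = 0.00148) and 0.87 (adjusted p = 0.0110). With both trends removed 5 members passed in both fractions, Zfp949, Zfp87 and Zfp830 as higher and Zfp865 and Zfp90 as lower. Each of these 5 except Zfp865 lost its call in non-RGCs as normalised without mKO non-RGC library B, or, for Zfp830, did not pass there as normalised (log2 0.50, adjusted p = 0.0538).

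**Figure D5:**
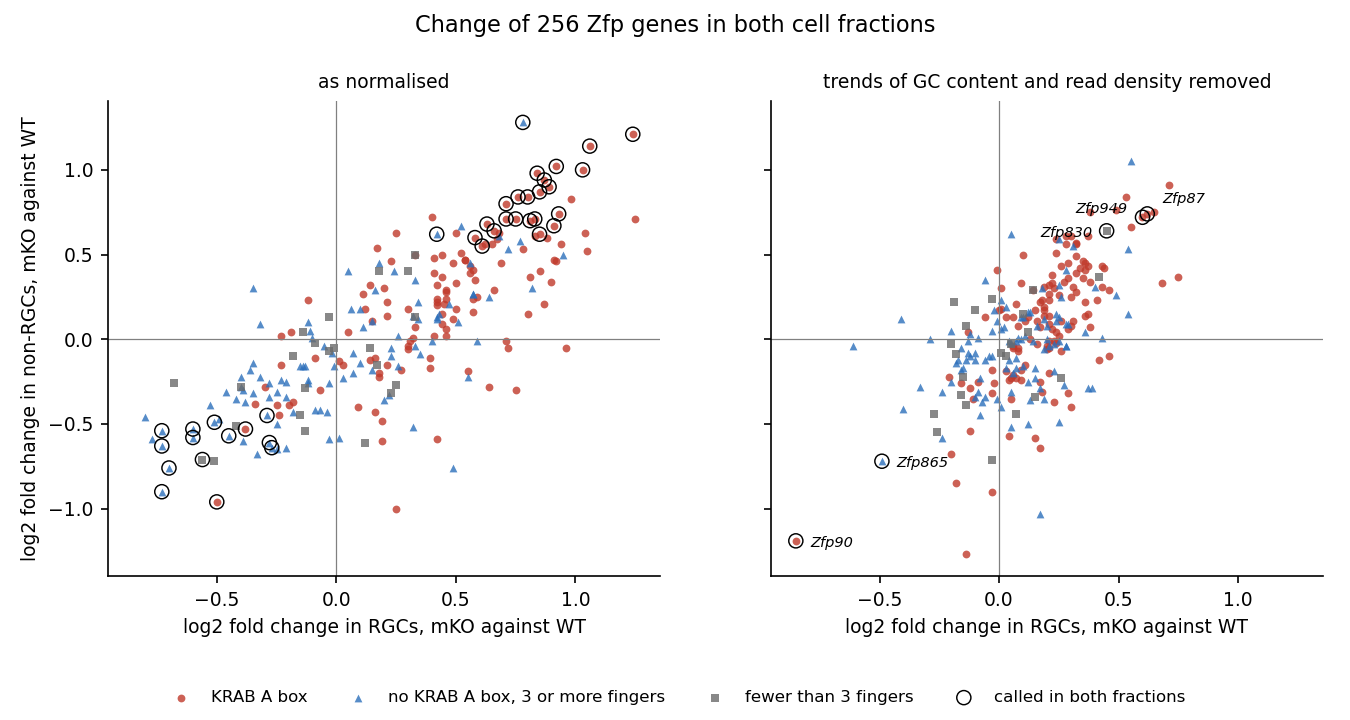
Log2 fold change in RGCs (horizontal axis) and in non-RGCs (vertical axis), mKO against WT, of the 256 Zfp genes, as normalised on the left and with both trends removed on the right, with a circle around each gene that passed in both fractions. On the left 38 genes are circled, all in the upper right or lower left; on the right 5 are, Zfp90 and Zfp865 at the lower left and Zfp830, Zfp949 and Zfp87 at the upper right.

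The difference between fractions was tested by itself, as the change in RGCs minus the change in non-RGCs over all 12 libraries. Of the 256 members 0 passed, beside 16 of 14894 genes (0.107%). At an unadjusted p under 0.05, 41 members differed, 40 with the higher value in RGCs and 1 with the lower, beside 10.1% of all genes. The median difference of the members was 0.16 with 182 above 0, beside -0.02 over all genes. With both trends removed it was 0.08 with 159 above 0, again beside -0.02. There 29 members had an unadjusted p under 0.05, and the share of all genes was not computed. The smallest p was that of Zfp292, whose reads were 2788.9, 2961.1 and 3181.3 in WT and 3048.4, 2380.4 and 2283.4 in mKO non-RGCs. Its change was 0.55 in RGCs and -0.22 in non-RGCs, a difference of 0.77 (SE 0.16, adjusted p = 0.126, limma). Zfp398 followed with a difference of 1.25 (SE 0.34, adjusted p = 0.355). A member called in RGCs and not in non-RGCs is therefore not shown to differ between them. Without mKO non-RGC library A, 8 members passed, and without any other library 0.

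The proteins that KRAB domains recruit were measured beside them. Of 28 measured corepressor genes, 8 were higher and 6 lower in mKO RGCs (median -0.03), beside 16.3% and 21.2% of all genes, so the falls were at the background. In non-RGCs 2 were higher and 5 lower (median -0.16), beside 4.18% and 6.43%. Trim28, the partner of the KRAB box, fell from 4019.9, 4016.7 and 4665.8 normalised reads in WT RGCs to 2577.5, 2667.5 and 2670.7 in mKO RGCs (log2 -0.68, SE 0.07, adjusted p = 0.000876). With both trends removed the difference of Trim28 was -0.12 (adjusted p = 0.334). Setdb1 had a log2 fold change of -0.02 (adjusted p = 0.827) as normalised and of 0.04 (adjusted p = 0.730) with both trends removed. Mphosph8, a subunit of the HUSH silencing complex, rose in RGCs (0.59, adjusted p = 0.000924) and in non-RGCs (0.91, adjusted p = 0.0207) and passed in both with both trends removed (0.38 and 0.89). Cbx3, or HP1γ, fell in RGCs (-0.50, adjusted p = 0.00629) and non-RGCs (-0.69, adjusted p = 0.0274) and also passed with both trends removed (-0.92 and -0.98). Morc3 (0.51) and the remodeller Smarcad1 (0.31) rose and Chd4 (-0.35), of the NuRD complex, fell in RGCs, and none of these 3 passed with both trends removed. In total 2 of the 28 genes were higher and 1 lower in RGCs after that correction, beside 2.21% and 4.11% of all genes, and 1 higher and 2 lower in non-RGCs, beside 0.983% and 1.13%, and without mKO non-RGC library B or WT non-RGC library B 0 of the 28 passed in non-RGCs as normalised.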

How the data were processed

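RNA-seq of P0 mouse RGCs and non-RGCs, mKO and WT, was analysed in 4 groups of 3 libraries, taken from the labels. STAR 2.3.1z4 was used by the authors to map the single-end reads on mm10, featureCounts to count them per gene and DESeq to normalise them, RGC and non-RGC libraries separately. Per the deposited names, only primary alignments were kept and duplicates removed; whether counting used strand is not given in the sources used here. The deposited signal values are counts divided by the authors' size factors and averaged over a group. The tables also hold the authors' fold changes, p-values and adjusted p-values of each comparison, which were not used. There were 0 unused columns of per-sample values.

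The deposited means have enough digits to give back the whole reads of each library. In every group exactly 1 solution was found for 100% of genes with reads. With slightly altered size factors, 0 of 1000 genes tried in each group were solved. The tests thus differ from ones planned on deposited values per sample. Reads were divided by the authors' size factors. limma 3.58.1 (R 4.3.3) with a mean-variance trend was run on log2(normalised reads + 1), per fraction, over genes whose mean reached 10 in at least 1 genotype, two-sided, with Benjamini-Hochberg adjustment over all of them; a call is an adjusted p under 0.05. The difference between fractions was a contrast over 12 libraries. A fold change on this scale understates that of genes with few reads, and p-values measure the spread between 3 RNA extractions per group. With 3 against 3 libraries an exact permutation test cannot reach 0.05 and was not run. The steps were tested on simulated data.

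Gene positions, exon length and exon GC content came from GENCODE M21 (GRCm38), with 254 members matched by symbol and 2 by synonym. Fingers and KRAB A boxes (at least 12 of 18 positions) were found in translated GENCODE coding sequences, and promoters are RefSeq's. Alternatives were another pseudocount (0.5), no filter, other scalings, voom weights, other thresholds, leaving out each library, and removal of the GC content trend of each library (lowess, span 0.3) or of its joint trend in GC content and read density per exon base (nearest 300 genes), both estimated on genes averaging 50 or more. Leaving out libraries with trends removed was chosen after seeing the data. The members, the role lists, the corepressor list and the marker lists were chosen with earlier results of these data known. Named are the 10 largest rises and falls among calls in RGCs and 5 each in non-RGCs, the 6 best supported calls in both fractions, the 5 highest members per kb, the members of the role lists, those next to the threshold, 6 corepressors and runs of at least 5 members; other members were picked after their values were seen.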

Additional observations from a re-analysis of the deposited data

How the results depend on the processing

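The 158 calls in RGCs became 53 with the GC trend removed, 23 with GC and density trends removed and 65 at the study's thresholds; leaving out 1 library gave 109 to 183, and with both trends removed 0 to 100. The 44 calls in non-RGCs became 6 and 9 with the trends removed, 1 to 51 without 1 library, and from the 9, 0 to 14. The members' median of 0.25 in RGCs became 0.37 (total reads), 0.28 (upper quartile), 0.20 (GC), 0.15 (GC and density) and 0.30 (members from a mean of 50), and that of 0.04 in non-RGCs became 0.21 (total reads). The difference between fractions gave 0 calls, also with the trends removed, and 0 to 8 without 1 library. At an unadjusted p under 0.05 with a fold of at least 1.5 it gave 18, and 10 (GC) and 12 (GC and density). The share of all genes at these thresholds was not computed, so these counts are not read as a result. Other settings left these counts within 1.5 times: no filter 142 and 39, voom 160 and 47, a pseudocount of 0.5 158 and 44, members from a mean of 200 140 and 37. Corepressor calls (14 and 7) became 6 and 2 (GC), 3 and 3 (both trends), 3 and 2 (study's thresholds) and, scaled by total reads, 15 and 3; without 1 library they were 8 to 17 and 0 to 6.

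Over 62 named genes and 1612 values under alternatives, 1328 kept direction and side of the threshold, 165 lost and 37 gained a call, 66 changed sign without a call and 16 reversed, all in RGCs. With the GC trend removed the reversed log2 values were -0.15 (Zfp326), 0.21 (Zfp335), 0.01 (Zfp428), 0.06 (Zfp503), 0.17 (Zfp513), 0.08 (Zfp598) and 0.50 (Zfp703). With both trends removed they were -0.10 (Zfp326), 0.17 (Zfp335), 0.01 (Zfp358), 0.03 (Zfp362), -0.07 (Zfp407), 0.03 (Zfp503), 0.13 (Zfp513), 0.10 (Zfp598) and 0.42 (Zfp703). The cause was not tested. No paired analysis was possible because the recovered libraries carry no replicate numbers. Zfp58 and Zfp708, among the members with the fewest reads, had under 80 normalised reads per WT RGC library, and how depth bears on their calls was not tested.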
